A study of Mus musculus with 7 samples.

Results

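The stearoyl-CoA desaturases and the enzymes of fatty acid synthesis were examined in left ventricles of mice with a missense change in the giant muscle protein titin. The group holds 10 of the 20927 genes counted, namely *Scd1*, *Scd2*, *Scd4*, *Fasn*, *Acaca*, *Acacb*, *Elovl5*, *Elovl6*, *Fads1* and *Fads2*. The 10 genes were chosen by function after the contrast of A178D with wild-type hearts was known, and that contrast, in which *Scd4* stood out, led to the choice. Their differences between the genotypes are therefore given as a description, and nothing is read from how many of them differed.

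The study compared 3 wild-type (WT) mice, numbered 1, 3 and 4, with 4 mice homozygous for titin A178D, numbered 1 to 4, to find transcripts that differ in the mutant heart. The allele was made by CRISPR-Cas9 in C57BL/6N embryonic stem cells of the JM8F6 line, which were expanded as clones, and carries, next to A178D, a silent change of 3 bases for genotyping. The mice are labelled C57BL/6J and came from at least 5 generations of backcrossing to that strain, with WT littermates as controls. Poly(A) RNA of each left ventricle gave 1 library, with 51797208, 54245530 and 41102868 counts in WT replicates 1, 3 and 4 and 40623300, 52345529, 42174448 and 33080675 counts in A178D replicates 1 to 4.

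No age or sex is stated for these 7 mice in the sources used here. The Y-linked genes *Ddx3y*, *Eif2s3y*, *Uty* and *Kdm5d* were expressed in all 7 hearts, with sums from 223 to 264 CPM (counts scaled to a library of 1000000) in WT and from 167 to 245 CPM in A178D hearts. *Ttn*, the mutated gene, had 7245, 6247 and 6486 CPM in the WT hearts and 5361, 6173, 6490 and 4087 CPM in the A178D hearts, and edgeR did not call it (adjusted p = 0.287). Counts per gene do not show a base substitution, so this level does not check the genotype labels. The tissue label was checked with 9 cardiomyocyte markers, led by *Myh6* with a mean of 39989 CPM in WT hearts, and with atrial markers. Of the atrial markers *Bmp10* was at 0 in every heart and *Myl7* did not exceed 0.152 CPM. *Myl4* lay between 1.85 and 1.90 CPM in WT and between 2.14 and 4.01 CPM in A178D hearts (log2 fold change 0.65, adjusted p = 0.171), and *Stard10*, the most abundant of that list, between 23.2 and 29.0 CPM over all hearts. WT replicate 1 and A178D replicate 4 stood apart in how their counts depend on transcript length (a trend of 0.18 and -0.31 on the log2 scale, against -0.03 to 0.06 in the other 5). Without both, an alternative added after the data were seen, the log2 fold change of *Scd4* was 1.47 and *Scd4* alone of the 10 genes was called.

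Cells build fatty acids from acetyl-CoA, which acetyl-CoA carboxylase turns into malonyl-CoA and fatty acid synthase extends to palmitate. Elongases of the endoplasmic reticulum lengthen the chain, stearoyl-CoA desaturases place a double bond in saturated chains to give oleate and palmitoleate, and the front-end desaturases of the *Fads* genes act on polyunsaturated chains. The heart mostly burns fatty acids, and the malonyl-CoA that its carboxylase makes at the mitochondrion restrains their entry for oxidation.

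All 10 genes had 10 or more counts in 3 or more libraries, as the tests required. In the fit over 13894 genes by edgeR (quasi-likelihood test, p adjusted after Benjamini and Hochberg), 2.35% of genes had an adjusted p under 0.05 and are termed called here, 1.04% as higher and 1.31% as lower in A178D hearts. Of the 10 genes, 1 (*Scd4*) was called higher and none lower, while 2 had an unadjusted p under 0.05 (*Scd4* and *Scd1*), as did 16.7% of all genes tested. DESeq2 and limma-voom also called *Scd4* alone. The median log2 fold change was 0.007 over the 10 genes and 0.002 over all genes tested. The hearts of the genotypes did not overlap in *Scd4* and *Scd1*, and 16.1% of all tested genes had no overlap.

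**Figure D1:**
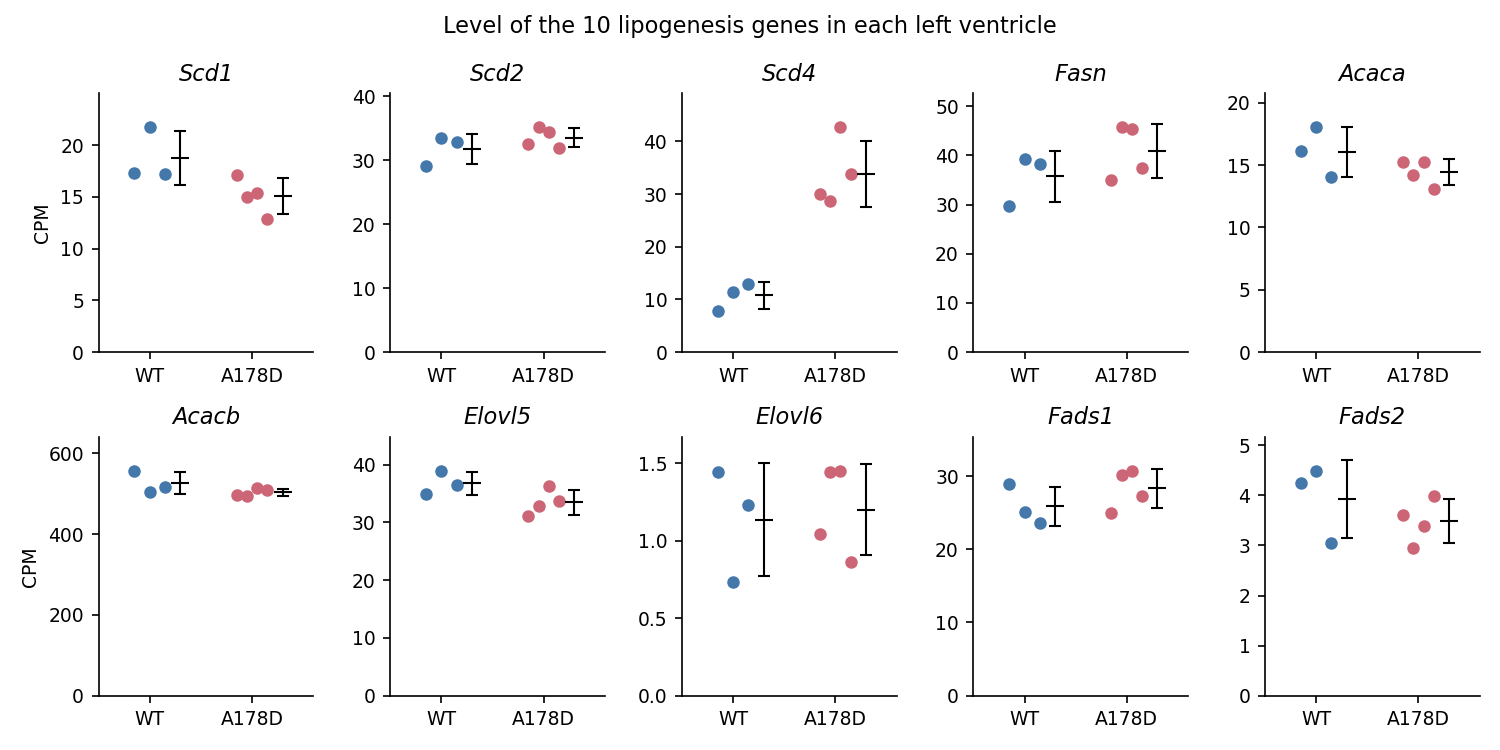
Level of each of the 10 genes in CPM (vertical axes from 0) in the 3 WT and 4 A178D left ventricles. Points are hearts, and the bars at their right show mean and SD. In the *Scd4* panel the A178D hearts lie between 28.7 and 42.7 CPM and the WT hearts between 7.86 and 12.9 CPM, whereas the genotypes overlap in 8 of the other 9 panels.

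*Scd4* (ENSMUSG00000050195) encodes a stearoyl-CoA desaturase first described as the form of the mouse heart. It lies on the forward strand of chromosome 19 from 44333092 to 44346743 (GRCm38). Its level was 7.86, 11.5 and 12.9 CPM in WT replicates 1, 3 and 4. In A178D replicates 1 to 4 it was 30.04, 28.7, 42.7 and 33.9 CPM. The lowest A178D heart thus lay more than 2 times above the highest WT heart, with WT replicate 1 the lowest of all and A178D replicate 3 the highest. The rise was 3.15-fold with a 95% interval from 2.45 to 4.05, or 1.66 on the log2 scale with a standard error of 0.17 (adjusted p = 0.00046 from edgeR). By size it ranked 9 among the 145 genes called higher, and by p it ranked 4 among all genes tested. *Scd4* was called in all 7 fits that left out 1 heart, with log2 fold changes from 1.47 to 1.81.

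The ventricle is a mixture of cells, so in these bulk samples more or fewer cells of a type and more or less RNA per cell cannot be told apart, for *Scd4* as for every gene below.

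*Scd1* (ENSMUSG00000037071), the main desaturase of liver and fat, lies on the reverse strand of chromosome 19 from 44394455 to 44407879. It had 17.3, 21.7 and 17.2 CPM in the WT hearts. In the A178D hearts it had 17.1, 15.0, 15.4 and 12.8 CPM. The genotypes did not overlap, but WT replicates 1 and 4 and A178D replicate 1 were nearly level, so that the gap between the groups was far smaller than the spread within either. Its log2 fold change of -0.31 (standard error 0.12, 95% interval -0.56 to -0.06, adjusted p = 0.20 in edgeR) was not called, nor was the gene in any alternative fit.

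*Scd2* (ENSMUSG00000025203), the form found in most tissues and prominent in brain, lies on chromosome 19 from 44293674 to 44306864. Its WT hearts held 29.1, 33.5 and 32.8 CPM and its A178D hearts 32.5, 35.2, 34.4 and 32.0 CPM. The genotypes overlapped, and the 95% interval of the log2 fold change ran from -0.10 to 0.25. *Scd3*, the remaining gene of the cluster and not among the 10, was near the floor of detection with 0.381 to 0.615 CPM in WT and 0.372 to 0.865 CPM in A178D hearts. Its log2 fold change of 0.22 had a standard error of 0.41 and was not called.

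To compare the 4 genes with each other, levels were set per length as FPKM (CPM per kilobase of the union of annotated exons). The summed *Scd* level was 11.04, 13.8 and 13.1 FPKM in the WT hearts and 17.5, 17.3, 21.0 and 17.7 FPKM in the A178D hearts. Without *Scd4* the sum was 8.96, 10.7 and 9.69 FPKM in WT and 9.56, 9.64, 9.63 and 8.73 FPKM in A178D hearts, so the genotypes overlapped once *Scd4* was taken out. *Scd4* supplied 18.9, 22.1 and 26.2% of the sum in the WT hearts. In the A178D hearts it supplied 45.5, 44.2, 54.1 and 50.8%, the largest share of any *Scd* gene in each of these hearts. *Scd2* held the largest share in each WT heart, with 48.2, 44.5 and 45.8%, and the mean share of *Scd1* was 30.3% (SD 3.11, n = 3) in WT against 16.9% (SD 2.45, n = 4) in A178D hearts. With the longest transcript as the length, *Scd4* made up a mean of 24.6% in WT and 51.7% in A178D hearts.

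**Figure D2:**
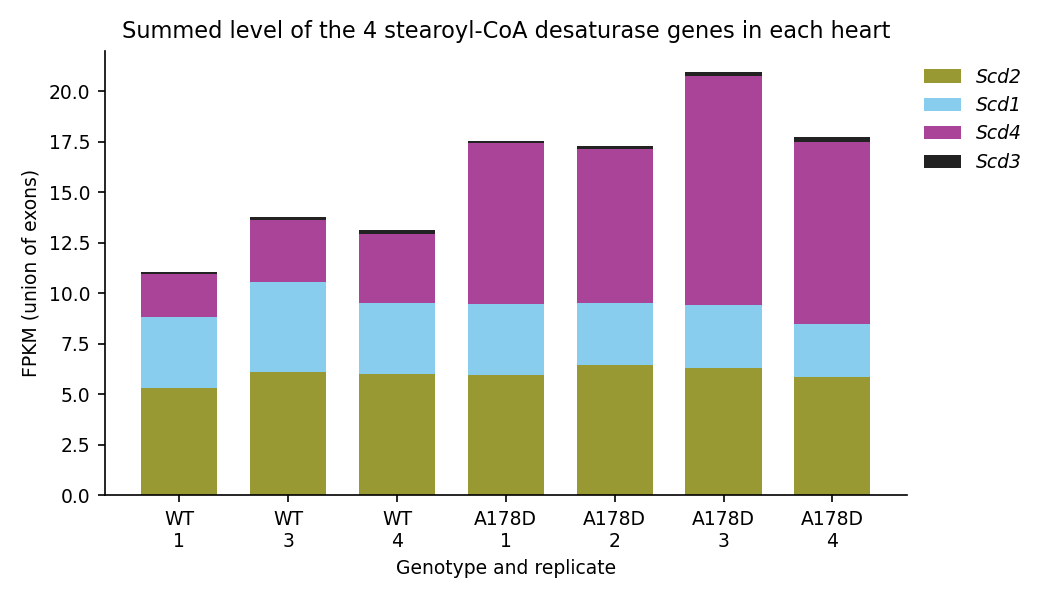
Summed level of *Scd1*, *Scd2*, *Scd3* and *Scd4* per heart in FPKM (vertical axis, from 0), with 1 bar per left ventricle and the genes stacked. The *Scd4* segment takes 18.9 to 26.2% of each WT bar and 44.2 to 54.1% of each A178D bar, while the rest of each bar lies between 8.73 and 10.7 FPKM in all 7 hearts.

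The *Scd* genes are close copies, and reads from stretches they share can be assigned to the wrong copy. Over the coding sequence, *Scd4* matched *Scd1* at 85.1%, *Scd3* at 84.6% and *Scd2* at 83.9% of aligned bases, while *Scd1* and *Scd3* matched at 91.5%. The reads were 76 bases from each end. Of the 3692 distinct windows of this length in the annotated *Scd4* transcripts, 59 also occurred in transcripts of another gene. The share of such windows was 3.13% for *Scd1*, 1.74% for *Scd2* and 3.17% for *Scd3*. Along the coding sequence, the nearest copy differed from *Scd4* by a median of 8 bases per window. How the counting treated reads that match several genes is not given in the sources used here.

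The window in which the 4 genes are most alike lies within exon 4 and is shown because a single read confined to it cannot separate *Scd4* from *Scd1* and *Scd2*. In *Scd4* it spans chr19:44338922-44338997 on the forward strand (GRCm38, GENCODE M21), and *Scd1* and *Scd2* hold the same 76 bases. Capitals mark the base of *Scd3* that differs from *Scd4*. All are coding sequence, read 5′ to 3′.
Scd4: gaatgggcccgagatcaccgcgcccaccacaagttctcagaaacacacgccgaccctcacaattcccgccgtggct
Scd1: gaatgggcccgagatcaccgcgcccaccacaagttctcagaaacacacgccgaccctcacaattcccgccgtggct
Scd2: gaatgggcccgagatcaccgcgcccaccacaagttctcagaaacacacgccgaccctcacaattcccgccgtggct
Scd3: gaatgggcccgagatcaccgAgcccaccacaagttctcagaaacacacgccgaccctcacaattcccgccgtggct

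The window in which *Scd4* differs most from its nearest copy lies within exon 5, at chr19:44341281-44341356 on the forward strand, and is shown because a single read from it identifies the gene. Capitals mark bases that differ from *Scd4*, which are 26 in *Scd1* (chr19:44400239-44400314, reverse strand), 24 in *Scd2* (chr19:44301272-44301347, forward strand) and 22 in *Scd3* (chr19:44238436-44238511, forward strand).
Scd4: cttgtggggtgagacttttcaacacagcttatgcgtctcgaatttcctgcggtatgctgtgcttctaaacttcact
Scd1: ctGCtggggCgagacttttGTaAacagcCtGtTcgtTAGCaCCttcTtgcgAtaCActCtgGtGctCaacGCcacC
Scd2: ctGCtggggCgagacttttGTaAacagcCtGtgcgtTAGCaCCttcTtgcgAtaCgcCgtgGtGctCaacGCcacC
Scd3: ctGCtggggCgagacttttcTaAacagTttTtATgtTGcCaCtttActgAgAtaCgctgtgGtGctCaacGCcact

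The 4 *Scd* genes stand side by side on chromosome 19. Of 15 protein-coding genes within 200 kb of the cluster 12 were tested, of which 4 had an unadjusted p under 0.05 (16.7% of all genes tested did), and *Scd4* was the only one called by edgeR or DESeq2. The other 11 had log2 fold changes from -0.31 (*Scd1*) to 1.46. The latter belongs to *Wnt8b*, a ligand gene at 0.073 CPM in WT and 0.201 CPM in A178D hearts on average, and its standard error was 0.85. On either side of *Scd4*, *Scd2* and *Scd1* had log2 fold changes of 0.08 and -0.31. Beyond the cluster, *Sec31b*, which encodes a coat protein of secretory vesicles, had -0.28 (adjusted p = 0.131) and *Ndufb8*, a subunit gene of respiratory complex I, had 0.16 (adjusted p = 0.292), both with no overlap between the genotypes. *Erlin1*, *Chuk*, *Cwf19l1*, *Bloc1s2* and *Hif1an* lay between -0.10 and 0.19, and *Cyp2c23* and *Pkd2l1* were not tested for low counts.

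**Figure D3:**
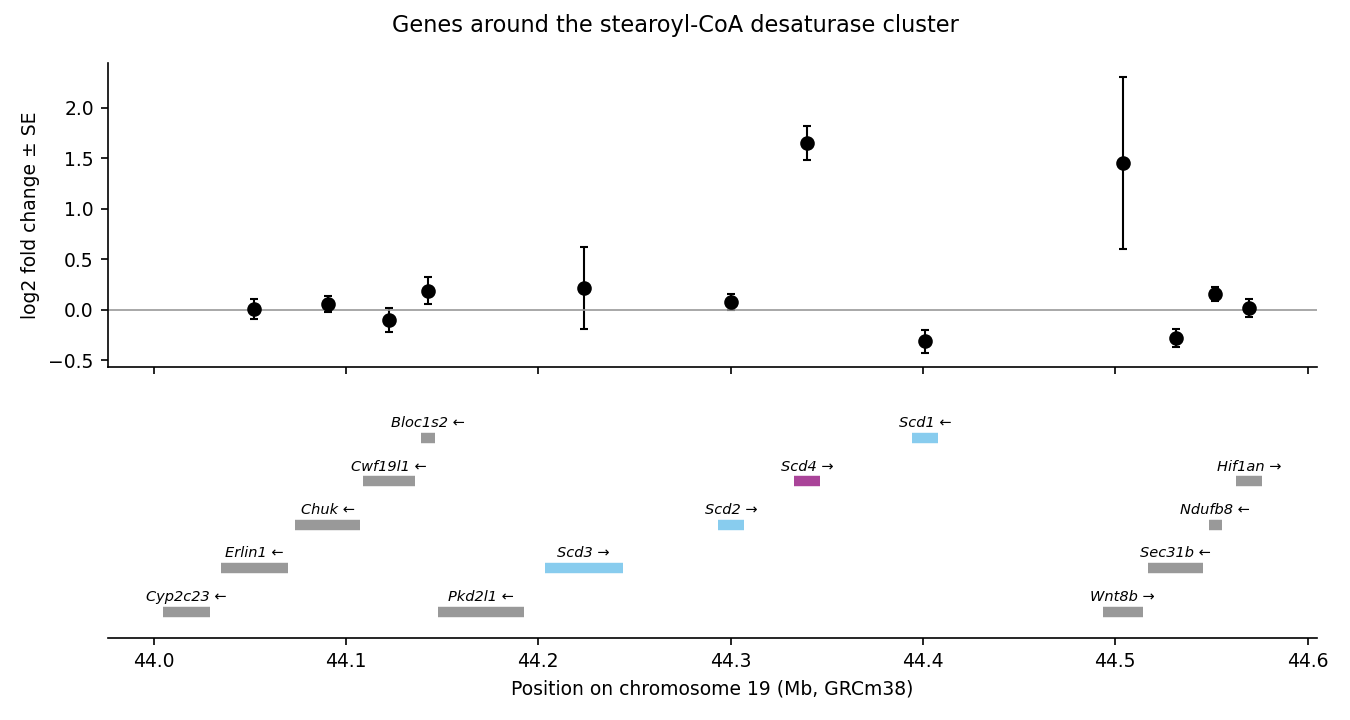
Genes around the *Scd* cluster on chromosome 19 (horizontal axis in Mb, GRCm38). The upper panel gives the log2 fold change of each tested gene, A178D against WT, with its standard error, and the lower panel the extent and strand of the genes. *Scd4* lies at 1.66, its neighbours *Scd2* and *Scd1* at 0.08 and -0.31, and *Wnt8b* at 1.46 with a standard error of 0.85.

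Among the enzymes of synthesis, *Acacb* (ENSMUSG00000042010, chromosome 5 from 114146535 to 114250761) encodes the carboxylase tied to mitochondria that dominates in heart and skeletal muscle. It had 557, 505 and 516 CPM in the WT hearts and 496, 495, 513 and 509 CPM in the A178D hearts. The genotypes overlapped, and the 95% interval of the fold was 0.870 to 1.05, the narrowest of the 10 genes. The sign of its log2 fold change of -0.06 flipped to 0.04 once trends with transcript length and GC content were removed.

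*Acaca* (ENSMUSG00000020532, chromosome 11 from 84129672 to 84401651), the cytosolic carboxylase that feeds fatty acid synthase, had 16.1, 18.0 and 14.0 CPM in WT and 15.2, 14.2, 15.3 and 13.1 CPM in A178D hearts. The genotypes overlapped, at a log2 fold change of -0.15 ± 0.11 (SE) and an adjusted p of 0.511. Per length, the ratio of *Acacb* to *Acaca* averaged 58.7 over the 3 WT hearts (SD 8.07) and 62.0 over the 4 A178D hearts (SD 4.90). That ratio depends on the gene model, since the union of *Acaca* exons is long, and with the longest transcripts as lengths it averaged 35.8 for WT and 37.9 for A178D. In addition, 26.6% of the read-length windows in annotated *Acaca* transcripts occur in other genes, the largest share among the 10.

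*Fasn* (ENSMUSG00000025153, chromosome 11 from 120805846 to 120824547) encodes the synthase that makes palmitate. Its level was 29.8, 39.3 and 38.2 CPM in WT and 35.02, 45.7, 45.3 and 37.5 CPM in A178D hearts. WT replicate 1 was the lowest and A178D replicates 2 and 3 the highest, with the rest interleaved. On the log2 scale the difference was 0.20 with a 95% interval from -0.06 to 0.45 (adjusted p = 0.435).

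Neither of the 2 elongases was called, and per length *Elovl5* ranked 2 and *Elovl6* 10 among the 10 genes in WT hearts. *Elovl5* (ENSMUSG00000032349, chromosome 9), which extends polyunsaturated chains, had 34.9, 39.0 and 36.4 CPM in WT and 31.1, 32.8, 36.3 and 33.7 CPM in A178D hearts. A178D replicate 3 lay within the WT range, and the other 3 lay below it. The difference in edgeR was -0.13 ± 0.08 (SE) on the log2 scale, with 0.437 as the adjusted p. *Elovl6* (ENSMUSG00000041220, chromosome 3), which extends palmitate to stearate, the substrate of the *Scd* enzymes, was scarce with 0.734 to 1.45 CPM in WT and 0.865 to 1.45 CPM in A178D hearts. The 95% interval of its fold, from 0.669 to 1.70, was wide at this depth, and the log2 fold change of 0.09 turned to -0.15 without WT replicate 3 and to -0.01 without A178D replicate 2 or 3.

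The front-end desaturases *Fads1* and *Fads2* lie on chromosome 19 as well, from 10182888 to 10196877 and from 10062765 to 10101746. *Fads1* (ENSMUSG00000010663) had 28.9, 25.1 and 23.6 CPM in WT and 25.0, 30.2, 30.7 and 27.3 CPM in A178D hearts. *Fads2* (ENSMUSG00000024665), which acts upstream of *Fads1* in making arachidonate, had 4.24, 4.49 and 3.05 CPM in WT and 3.62, 2.94, 3.40 and 3.98 CPM in A178D hearts. Both overlapped between the genotypes, with log2 fold changes of 0.13 ± 0.10 (SE) and -0.18 ± 0.18 (SE). Within 100 kb of the *Fads* cluster 10 protein-coding genes were tested. None was called by edgeR or DESeq2, and 3 had an unadjusted p under 0.05 in edgeR, as did 16.7% of all genes tested. The 3 are *Tmem258* with a log2 fold change of 0.21, *Myrf* with -0.44 and *Fads3*, the remaining gene of the family, with 0.17 (adjusted p = 0.214), all named after their values were seen. *Fads3* had 92.5 to 98.4 CPM in WT and 105 to 114 CPM in A178D hearts, without overlap, as had *Myrf* in the other direction.

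**Figure D4:**
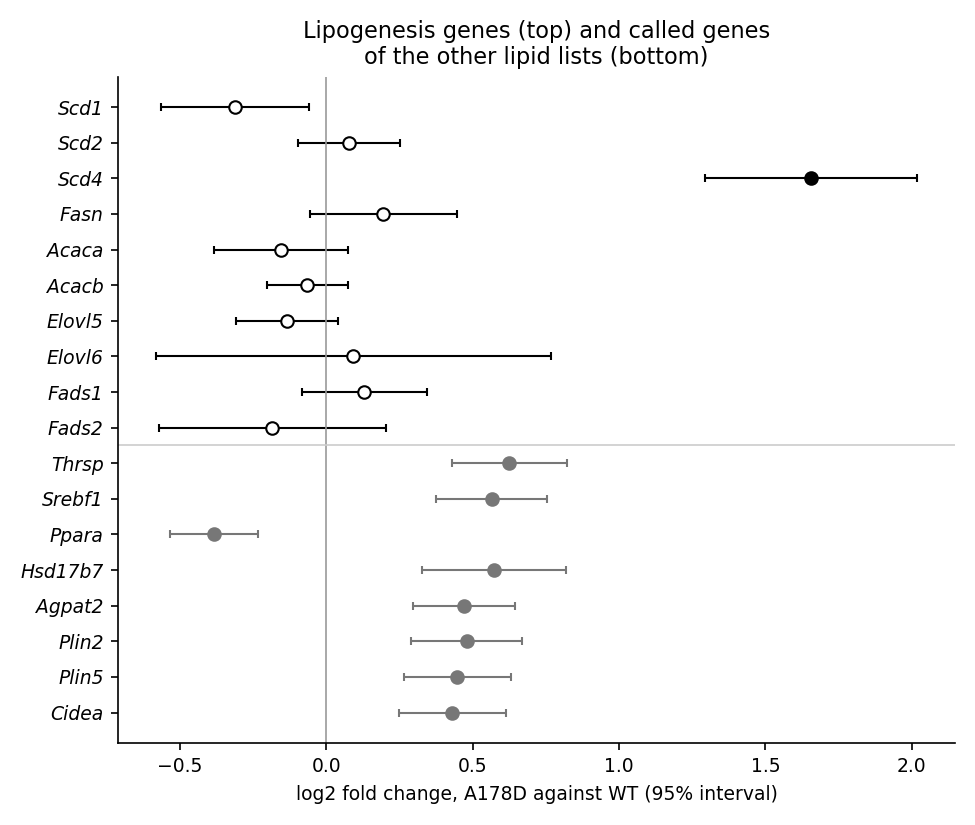
Log2 fold change of A178D against WT hearts (horizontal axis) with 95% intervals for the 10 genes (top, black) and for the called genes of the other lipid lists (bottom, grey). Filled points have an adjusted p under 0.05. *Scd4* lies at 1.66 (1.30 to 2.02), and the intervals of 8 of the other 9 genes in the upper part include 0.

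Ordered by level per length in WT hearts, *Acacb* came first with 54.6 FPKM and *Elovl5* next with 10.4 FPKM. *Scd2* (5.82), *Fads1* (5.38), *Scd1* (3.83), *Fasn* (3.27) and *Scd4* (2.86 FPKM) followed. *Fads2* (1.19), *Acaca* (0.940) and *Elovl6* (0.177 FPKM) closed the order. In A178D hearts *Scd4*, at 8.98 FPKM, moved from rank 7 to rank 3, just under *Elovl5* at 9.51 FPKM, and the order of the remaining genes by level changed only between *Scd1* (3.08 FPKM) and *Fasn* (3.74 FPKM). The ranges of some neighbours in this order overlap over hearts, namely *Scd2* with *Fads1*, *Scd1* with *Fasn*, *Fasn* with *Scd4* and *Fads2* with *Acaca* in WT hearts. In A178D hearts the same holds for *Elovl5* with *Scd4*, *Scd2* with *Fads1*, *Fasn* with *Scd1* and *Fads2* with *Acaca*. Within single hearts, however, *Fads2* was above *Acaca* in all 7, and *Scd1* above *Fasn* and *Fasn* above *Scd4* in all 3 WT hearts, whereas *Scd2* and *Fads1* changed order in both genotypes. *Scd2* and *Fads1* trade places in WT hearts when the longest transcript gives the length, as do *Fads2* and *Acaca*.

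Beyond the 10 genes, 10 lists of related lipid genes written by function hold 118 genes, of which 114 were tested. The lists were written with earlier results of these data known, so their counts and shares are given as a description. In edgeR's test 7 of them were called higher and 1 lower (7.02%, against 2.35% of all genes tested). A log2 fold change above 0 was found in 60.5% of them, against 50.5% of all genes tested. The median log2 fold change was 0.04.

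Control of lipogenic transcription was covered by 20 genes, all tested, of which 1 rose and 1 fell (10% called, against 2.35% of all genes tested). *Srebf1*, which encodes the sterol regulatory element binding protein that drives genes of fatty acid synthesis, had 48.4, 52.5 and 50.8 CPM in WT and 63.1, 77.9, 81.1 and 77.0 CPM in A178D hearts. No A178D heart was as low as any WT heart, and *Srebf1* rose 1.48-fold (95% interval 1.30 to 1.69, adjusted p = 0.00601). *Ppara*, the nuclear receptor for fatty acid oxidation, had 148, 136 and 152 CPM in WT and 105, 117, 115 and 109 CPM in A178D hearts and fell by 0.38 on the log2 scale (adjusted p = 0.0144). It was not called without WT replicate 4 (adjusted p = 0.0772) or A178D replicate 1 (0.0566). The most abundant gene of the list, *Ppargc1a*, a coactivator of oxidative metabolism, had a log2 fold change of -0.31 (adjusted p = 0.0611). Among 8 genes activated by the liver X receptors, *Srebf1* was the only one called, and the most abundant, *Apoe*, had 0.18 (adjusted p = 0.415). Of the same list *Mylip*, with -0.40 (adjusted p = 0.0632), and *Abcg1*, with -0.41 (adjusted p = 0.153), both named after their values were seen, had an unadjusted p under 0.05 in the other direction.

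In the list on malonyl-CoA control, 1 of 11 tested genes rose (9.09%, against 1.04% of all genes tested called higher). *Thrsp*, a regulator of lipogenesis that pairs with *Mid1ip1*, an activator of acetyl-CoA carboxylase, had 22.0, 23.9 and 28.1 CPM in WT and 38.1, 36.1, 38.7 and 39.0 CPM in A178D hearts. The groups were well apart, and the rise was 1.54-fold (95% interval 1.35 to 1.77, adjusted p = 0.00564). *Thrsp* and *Srebf1* were called in all 7 fits without 1 heart, with adjusted p-values up to 0.0499 and 0.0488, close to the threshold. The most abundant gene, *Prkaa2*, a catalytic subunit of AMP-activated kinase, differed by a fold of 0.999. In this list 2 genes had an unadjusted p under 0.05 in edgeR (18.2%, against 16.7% of all genes tested). Besides *Thrsp* it was *Mlycd*, named after its values were seen. *Mlycd* was not called but was higher in A178D hearts without overlap (log2 fold change 0.30, adjusted p = 0.103 in edgeR).

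By count, synthesis and storage of triacylglycerol had the most called genes, 4 of 21 tested, all higher. Over all genes tested, 1.04% were called higher and 2.35% in either direction. The list is among the longest, with 21 genes tested against 22 in cholesterol synthesis. *Plin2* and *Plin5* encode coat proteins of lipid droplets, *Cidea* a droplet protein that promotes their growth, and *Agpat2* an acyltransferase of triacylglycerol synthesis. *Plin2* had 64.3, 56.9 and 74.1 CPM in WT and 89.6, 91.9, 95.7 and 85.9 CPM in A178D hearts. *Plin5* had 164, 132 and 166 CPM in WT and 213, 204, 202 and 223 CPM in A178D hearts. Neither gene overlapped between the genotypes, and both rose by less than 1.5-fold, with log2 fold changes of 0.48 and 0.45 (adjusted p = 0.0144 and 0.0162). *Agpat2* rose from 33.8 ± 2.18 (SD, n = 3) to 46.8 ± 3.06 CPM (SD, n = 4), with an adjusted p of 0.0105 from edgeR. *Cidea* rose from 30.1 ± 3.09 (SD, n = 3) to 40.6 ± 1.10 CPM (SD, n = 4), with an adjusted p of 0.0177 from edgeR. The most abundant gene, *Dgat2*, which completes triacylglycerol, had a log2 fold change of -0.09 (adjusted p = 0.587). *Plin4*, another droplet coat gene of the list, named after its values were seen, was not called and had the opposite direction. Its level was 267, 269 and 366 CPM in WT and 256, 257, 242 and 237 CPM in A178D hearts, without overlap (log2 fold change -0.28, adjusted p = 0.176).

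None of these 4 calls held in every fit that left out 1 heart. Without WT replicate 3 the adjusted p was 0.0823 for *Agpat2*, 0.089 for *Plin2*, 0.0872 for *Plin5* and 0.115 for *Cidea*. *Plin5* was also lost without A178D replicate 1 (0.0562), and *Cidea* without WT replicate 4 (0.0718), A178D replicate 1 (0.0557) or A178D replicate 3 (0.0536). With trends in transcript length and GC content removed, *Agpat2* (log2 fold change 0.39, adjusted p = 0.0501) and *Cidea* (0.32, adjusted p = 0.0865) were no longer called. With the replicate block added to this, *Agpat2* (0.38, adjusted p = 0.0963), *Cidea* (0.32, adjusted p = 0.144) and *Plin2* (0.40, adjusted p = 0.0768) were not called.

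In cholesterol synthesis, which shares the sterol regulatory proteins, 1 of 22 tested genes was called (4.55%, against 2.35% of all genes tested). *Hsd17b7*, a reductase of the later steps, had 25.1, 27.0 and 31.3 CPM in WT and 39.7, 38.2, 50.6 and 37.0 CPM in A178D hearts. It rose by 0.57 on the log2 scale (adjusted p = 0.0194) and was not called without WT replicate 3 (0.115) or A178D replicate 1 (0.0555). The median of the list was -0.01, and *Fdft1*, its most abundant gene, had -0.15 (adjusted p = 0.313).

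The lists closest to the 10 enzymes held no called gene in edgeR or limma-voom, and 1 (*Acss2*) in DESeq2. An unadjusted p under 0.05, which 16.7% of all genes tested had, was found in 1 of 7 tested desaturases and elongases beyond the 10. The same held for 1 of 8 genes that supply acetyl-CoA and NADPH. In the list of acetyl-CoA and NADPH supply it was *Acss2*, which makes acetyl-CoA from acetate. *Acss2* had 42.8, 47.8 and 49.3 CPM in WT and 57.4, 54.1, 59.6 and 55.9 CPM in A178D hearts. All 4 A178D hearts lay above the WT hearts, and its log2 fold change was 0.28 (adjusted p = 0.0711). *Me1*, the most abundant gene of that list and a source of NADPH, had 0.16 (adjusted p = 0.38).

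The pattern of *Scd4* over the 7 hearts was set against 12211 other tested genes whose mean was 50 counts or more, by Pearson's r of log2 CPM with 0.5 added. The 5 most alike were *Blmh* (0.984), *Clba1* (0.982), *Thrsp* (0.980), *Acss2* (0.978) and *Fam189a2* (0.978). These values rest on 7 hearts in 2 groups, so the step between the genotypes is part of each of them. *Thrsp* and *Fam189a2* were called higher, and *Blmh*, *Clba1* and *Acss2* were not called.

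Promoter windows from RefSeq (GRCm38.p6) were found for *Scd4*, *Fasn*, *Acaca*, *Acacb*, *Elovl5*, *Elovl6* and *Fads2* among the 10 genes, and for *Scd3*. In the 250 bases before each start, both strands were searched for 4 motifs, none of which contains another. The sterol element TCACNCCAC occurs in 1.05% of all 32851 promoters of this length and the E-box CACGTG in 6.02%. The box with the letters CCAAT occurs in 33.8%, and the GC box, with the letters GGGCGG, in 32.7%. None of the 4 motifs was in the *Scd4* window, of which 234 bases lie in the first exon that GENCODE annotates. The sterol element was in none of the 8 windows, the E-box in that of *Elovl5*, the CCAAT box in those of *Fasn*, *Elovl5* and *Acacb*, and the GC box in that of *Fads2*. Of the 250 bases of the *Fads2* window, 243 lie in annotated exons. Per gene rather than per promoter, since *Srebf1* has 3 windows and *Plin5* 2, the counts for the 7 called lipid list genes with a promoter are not on the scale of these shares, and they are given as a description. Among the 7, 5 (*Srebf1*, *Thrsp*, *Plin2*, *Plin5* and *Hsd17b7*) held a CCAAT box, 5 (*Agpat2*, *Hsd17b7*, *Plin5*, *Ppara* and *Srebf1*) a GC box, 1 (*Hsd17b7*) an E-box and none the sterol element. Of the windows of *Thrsp* and *Ppara*, 180 and 150 bases lie in annotated exons.

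As an example of these motifs, the CCAAT box with its flanks is printed for the called genes in which it lies outside annotated exons, as 30 bases in the direction of the gene, with the box or its reverse complement ATTGG in capitals. All are on the reverse strand, *Hsd17b7* at chr1:169969261-169969290, *Plin2* at chr4:86670115-86670144, 1 of 2 such *Srebf1* promoters at chr11:60210484-60210513 and *Plin5* at chr17:56117755-56117784. They lie 73, 73, 30 and 224 bases before the start, each the box nearest to the start whose 30 bases lie outside annotated exons. Counting those within or near exons, the *Hsd17b7* window holds 3 CCAAT boxes and that of *Plin5* 2. A match describes the letters only.
Hsd17b7: tgccgagtcgcgATTGGcgggcctaacgcg
Plin2: acgccctcatccCCAATgagtggccccaga
Srebf1: gcgcggctgctgATTGGccatgtgcgctca
Plin5: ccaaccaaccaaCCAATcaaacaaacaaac

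Markers of other cell types were measured beside these genes. Of 10 adipocyte markers 7 were tested and none was called in edgeR, limma-voom or DESeq2, nor had any an unadjusted p under 0.05 in edgeR. Their sum was 476, 507 and 567 CPM in WT and 537, 518, 572 and 684 CPM in A178D hearts, nearly all of it from *Fabp4*, which endothelial cells express as well. The other 9 summed to 1.29, 2.22 and 3.77 CPM in WT and 0.991, 2.96, 1.43 and 2.10 CPM in A178D hearts, with *Adipoq* between 0.0248 and 0.443 CPM and *Lep* at 0 in all A178D hearts. Apart from *Fabp4*, the adipocyte markers were thus near 0 in both genotypes, and both sums overlapped between them.

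Of 7 fibroblast markers 4 had an unadjusted p under 0.05, against 16.7% of all genes tested. Also 4 (*Col1a1*, *Col1a2*, *Col3a1* and *Lum*) were higher in every A178D than in every WT heart. Over all genes tested, 16.1% had no overlap in either direction. Only *Col3a1* was called, with 248, 213 and 141 CPM in WT and 303, 324, 305 and 306 CPM in A178D hearts (adjusted p = 0.0317). It was not called without WT replicate 3 (0.113), A178D replicate 1 (0.084), A178D replicate 2 (0.0672) or A178D replicate 3 (0.0712). The sum of the list was 1130, 1161 and 1050 CPM in WT and 1365, 1289, 1236 and 1254 CPM in A178D hearts, without overlap between the genotypes and with *Dcn* the most abundant. None of the 8 macrophage markers was called in edgeR, 4 had an unadjusted p under 0.05, and DESeq2 called 1 (*C1qb*). The 4 did not share a direction, with *Adgre1* (log2 fold change 0.33), *C1qa* (0.29) and *C1qb* (0.50) higher and *Cd163* (-0.32) lower in A178D hearts. They summed to 178.04, 238 and 205 CPM in WT and 227, 246, 216 and 233 CPM in A178D hearts, with *Csf1r* the most abundant. The part of fibroblast and macrophage transcripts in the differences above was not tested.

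The endothelial, cardiomyocyte and atrial lists held no called gene. In the endothelial list edgeR, limma-voom and DESeq2 called no gene, and none had an unadjusted p under 0.05 in edgeR. The 7 endothelial markers summed to 1457 to 1517 CPM in WT and 1463 to 1625 CPM in A178D hearts, and *Fabp4* was again the most abundant. The 9 cardiomyocyte markers and the 5 atrial markers, led by *Stard10*, held no called gene in edgeR or DESeq2. An unadjusted p under 0.05 was found in 2 and 1 of them, against 16.7% of all genes tested. The cardiomyocyte markers summed to 103459, 108570 and 108123 CPM in WT and 102293, 102878, 101548 and 108591 CPM in A178D hearts. The atrial markers, of which 2 were tested, summed to 26.0 to 28.9 CPM in WT and 25.8 to 32.1 CPM in A178D hearts.

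The circadian clock times lipid genes in many tissues, and 6 of its 15 genes listed were called, against 2.35% of all genes tested. Of 5 genes of the *Arntl* phase *Arntl* itself was called higher, with 2.44, 1.10 and 1.33 CPM in WT and 8.70, 5.24, 4.15 and 4.14 CPM in A178D hearts (adjusted p = 0.0115), and *Cry1* was called lower. Of 10 genes of the *Per* phase 4 were called lower, namely *Per2* (log2 fold change -0.88), *Per3* (-0.47), *Hlf* (-0.42) and *Tef* (-0.39). The other 6 did not share 1 direction, with *Nr1d1*, named after its values were seen, at 0.51 (adjusted p = 0.0717). All 6 calls ended without WT replicate 3, at adjusted p-values of 0.0823 (*Arntl*), 0.187 (*Cry1*), 0.0525 (*Per2*), 0.089 (*Per3* and *Tef*) and 0.116 (*Hlf*). Without WT replicate 4, *Arntl* (0.0761), *Cry1* (0.129), *Per3* (0.0937), *Tef* (0.0873) and *Hlf* (0.149) were not called. Without A178D replicate 1 the same held for *Cry1* (0.112), *Per3* (0.0555), *Tef* (0.0574) and *Hlf* (0.0907), and without A178D replicate 3 for *Cry1* (0.0899). The *Per* list, led by *Tef*, summed to 1183, 1182 and 1219 CPM in WT and 924, 1045, 1120 and 1084 CPM in A178D hearts. The list of the *Arntl* phase, led by *Clock*, summed to 68.7 to 75.3 CPM in WT and 62.3 to 87.9 CPM in A178D hearts. The time of day at which each heart was taken is not given in the sources used here, and the part of the clock in the differences of *Scd4* and the other lipid genes was not tested.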

How the data were processed

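RNA of 7 left ventricles (3 WT and 4 A178D mice, 1 library each) was sequenced by the authors, who deposited raw counts per gene. Their processing notes name bcl2fastq 2.18.0.12, HISAT2 2.1.0, SAMtools 1.6, DESeq2 1.26.0 and the build GRCm38. The counting program, its use of strand and the annotation are not given in the sources used here. A second deposited table of normalized values was not used. Ensembl identifiers were matched to GENCODE M21, which left 268 of 21257 entries without a symbol. Of entries with 30 or more counts in total and identical counts in all libraries 1 was kept (223 removed, no listed gene among them), as were single copies of low entries repeated under 1 identifier (107 removed).

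A178D was compared with WT in edgeR 4.0.16 (R 4.3.3; TMM, quasi-likelihood test, at least 10 counts in at least 3 libraries, Benjamini-Hochberg adjusted p under 0.05). The procedure was tested on simulated data. CPM are counts scaled to TMM library sizes. Totals from 33080675 to 54245530 counts set the precision, which is low for genes near 1 CPM. Of counts from 1 to 20 only 17.6 to 20.3% per library were odd, against 47.9 to 50.2% of counts above 1000, as when both ends of a fragment are counted, and the cause was not tested.

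The members and lists were chosen with earlier results of these data known. All 10 members were named, and of each pathway list the called genes, the most abundant gene and, with a mean of at least 50 counts, the gene with the largest absolute log2 fold change. Of each marker list described, the sum, the most abundant and the called genes were given. *Hsd17b8* and *Xist* were not analysed here. *Tm7sf2* has several entries, of which the most abundant was used. Alternatives were DESeq2 1.42.0, its size factors in edgeR, limma-voom (limma 3.58.1), other filters, the table as deposited, offsets for transcript length and GC content (mgcv 1.9.3), a replicate block, an adjusted p under 0.01, leaving out each heart and, added after seeing the data, leaving out WT replicate 1 and A178D replicate 4 together.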

Additional observations from a re-analysis of the deposited data

How the results depend on the processing

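*Scd4* was called higher in every alternative fit, with log2 fold changes from 1.47 to 1.81 and adjusted p-values from 1.2e-20 to 0.00727, and was the only gene of the 10 called in each. *Acacb* changed sign to 0.036 with length and GC offsets and to 0.070 when these were combined with the replicate block. *Elovl6* ranged from -0.15 to 0.32 over the fits without 1 heart, with -0.148 without WT replicate 3, -0.007 without A178D replicate 2 and -0.0071 without A178D replicate 3, and it was 0.437 without WT replicate 1 and A178D replicate 4. Over all genes 145 were called higher and 182 lower, against 289 and 377 in DESeq2, 229 and 275 with length and GC offsets, and 24 and 40 at an adjusted p under 0.01. Without 1 heart, 22 to 215 were higher and 31 to 238 lower. WT replicate 1 and A178D replicate 4 stood apart in their trend with transcript length (0.18 and -0.31 on the log2 scale, against -0.03 to 0.06 in the others), and without both, an alternative chosen after seeing the data, 353 were higher and 407 lower. Of the other lipid genes, 7 were called higher and 1 lower. Without 1 heart these numbers were 2 to 7 and 0 to 3, and at an adjusted p under 0.01 they were 2 and 0. The lower count was 3 in DESeq2, 3 with no filter, 2 with offsets, 2 with the replicate block and offsets, and 3 without WT replicate 1 and A178D replicate 4. The cause of these shifts was not tested. Same-numbered hearts did not deviate together (correlations 0.018, -0.075 and -0.078), nor did each WT heart correlate best with the A178D heart of its number. What the numbers stand for is not given in the sources used here, and these correlations cannot decide whether they pair the samples. The replicate block gave 124 higher and 147 lower genes. The ratio of *Acacb* to *Acaca* per length moved from 58.7 to 35.8 in WT and from 62.0 to 37.9 in A178D hearts with the longest transcript. Genes near 1 CPM, such as *Elovl6*, are limited by depth.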

Other observations

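Elongation needs reductases and a dehydratase besides the elongase, and of the 7 genes of this cycle none was called or had an unadjusted p under 0.05 in edgeR. *Tecr*, which completes each round, led the list with 480, 501 and 530 CPM in WT and 513, 524, 470 and 535 CPM in A178D hearts, and *Hacd2* had the largest log2 fold change (0.23, adjusted p = 0.423). Desaturases draw electrons from cytochrome b5 and its reductases, and of these 6 genes none was called or had an unadjusted p under 0.05 in edgeR. *Cyb5r3* was the most abundant with a log2 fold change of -0.08, and *Cyb5b* had the largest at 0.14 (adjusted p = 0.428). DESeq2 and limma-voom called no gene of either list.

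Mitochondria hold a separate route of fatty acid synthesis that supplies lipoate. All 6 of its tested genes had log2 fold changes above 0, as had 50.5% of all genes tested, with a median of 0.11 against 0.002. None was called or had an unadjusted p under 0.05 in edgeR. The list summed to 407, 400 and 427 CPM in WT and 417, 424, 426 and 494 CPM in A178D hearts. Only A178D replicate 4 thus lay above the WT hearts, and this heart also stood apart in its trend with transcript length. *Ndufab1*, the acyl carrier protein, was the most abundant with 0.10 (adjusted p = 0.649), and ranged from -0.0016 to 0.14 over the fits without 1 heart. *Acsf3*, which makes malonyl-CoA in mitochondria, had the largest log2 fold change at 0.16 (adjusted p = 0.316).

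The spread between hearts of 1 genotype also differed among the 10 genes. The coefficient of variation in WT hearts (n = 3) ran from 5.22% for *Acacb* to 32.1% for *Elovl6*, and *Scd4* stood at 24.3%. In A178D hearts (n = 4) it ran from 1.84% for *Acacb* to 24.5% for *Elovl6*, with *Scd4* at 18.6%.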
